A study of Rattus norvegicus with 6 samples.

Results

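The D cyclins, the kinases they activate and the inhibitors of those kinases form a set of 10 genes, taken by symbol from the deposited count files: Ccnd1, Ccnd2, Ccnd3, Cdk4, Cdk6, Cdkn1a, Cdkn1b, Cdkn2a, Cdkn2b and Cdkn2c. All 10 had a row among the 17055 gene rows of the files, and 8 were abundant enough to be tested, among 10124 genes tested in all. The libraries were made from polyadenylated RNA of whole pancreatic islets of Sprague-Dawley rats labelled as controls. One group, P10, held islets of 10-day-old rats whose sex is not given, and the other, adult, islets of 3-month-old males, with 3 biological replicates each (P10 replicates 1, 3 and 4, adult replicates 1, 2 and 3). Whether pups were pooled for a P10 replicate is not given, and age and any difference in sex cannot be told apart. The comparison addresses how the mRNA of the G1 cell-cycle machinery differs between the young islet, before the maturation named in the title of the series, and the adult islet.

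As background, D cyclins bind the cyclin-dependent kinases CDK4 and CDK6, and the active complexes phosphorylate the retinoblastoma protein and its relatives. This releases E2F transcription factors, which switch on genes of DNA synthesis and let a cell leave G1. INK4 proteins (from Cdkn2a, Cdkn2b and Cdkn2c) bind the kinases and keep the cyclins off, whereas CIP/KIP proteins (from Cdkn1a and Cdkn1b) bind cyclin-kinase complexes. In rodent beta cells Cdk4 and Ccnd2 are known to be needed for the growth of beta-cell mass after birth, and Cdkn2a is known for limiting beta-cell division with age.

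Gene counts per library ran from 3307415 to 6477825, and the 10 genes together took between 0.0388% and 0.0559% of them. Levels are given in CPM, gene counts scaled to a common library size with TMM factors (trimmed mean of M values), and 3 counts in a library correspond to between 0.407 and 1.10 CPM. Markers of beta cells (8 genes) summed to between 227910 and 297160 CPM at P10 and between 538700 and 671880 CPM in adults, so the libraries hold islet RNA at both ages. Ins1 and Ins2 made up most of this sum. Their share of the gene counts was 31.4% ± 2.71 at P10 and 48.7% ± 3.11 in adults (SD, n = 3). Of the 8 beta-cell genes 6 were called higher, and Pdx1 and Slc30a8 were not called (edgeR FDR = 0.213 and 0.0586). Marker sums of several other cell types were higher at P10 without overlap. Those of fibroblasts (12 genes, Col1a2 and Mfap4 at 0 in every library) summed to between 3137 and 3965 CPM against 670 to 935 CPM. Of 10 tested fibroblast genes 8 were called lower, and Fn1 and Thy1 were not called. Fn1 had a mean of 411 CPM at P10 and 476 CPM in adults. Duct markers (6 genes, none at 0 everywhere) summed to between 1101 and 1122 CPM against 152 to 206 CPM, and 4 of 5 tested were called lower. Endothelial markers (10 genes, none at 0 everywhere) summed to between 193 and 326 CPM at P10 and between 112 and 168 CPM in adults, but only 2 of the 10, Cldn5 and Egfl7, were called lower. The sums of alpha-cell, Schwann-cell and erythroid markers were also higher at P10 without overlap. The sum of delta and PP cell markers (3 genes) was higher in adults (4308 to 6831 CPM against 2485 to 3014 CPM), but only Ppy was called higher. Sst was not called, at a mean of 999 CPM at P10 and 1199 CPM in adults. Hhex went the other way without a call, from 7.20 to 4.04 CPM. Acinar and leukocyte sums overlapped between the ages. The part of these cells in the results that follow was not tested. In whole islets fewer cells of a type and less RNA per cell cannot be told apart.

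Among the tested members, adult islets had more Ccnd1 and Ccnd2 mRNA and less Cdk4 and Cdkn1a mRNA than P10 islets. The other 4, Ccnd3, Cdkn1b, Cdkn2b and Cdkn2c, did not pass the test, and Cdk6 and Cdkn2a were too sparse to be tested. At a false discovery rate (FDR, the Benjamini-Hochberg adjusted p over all tested genes) under 0.05 in edgeR's quasi-likelihood test, 2 of 8 were higher, where 12.5% of all tested genes were higher. Another 2 of 8 were lower, where 13.8% of all tested genes were lower. Together 4 of 8 were called against 26.3% of all tested genes, and the CPM of the 2 ages did not overlap for 5 of 8 members against 42.3% of all tested genes. The median log2 fold change (adult over P10) of the 8 was 0.226, and that of all tested genes was -0.0288. Without P10 replicate 3 or adult replicate 1, 1 member was higher and 1 lower, and without P10 replicate 1 or adult replicate 2, 1 was lower. With library totals in place of TMM factors 1 was higher and 2 were lower. Over all genes that scaling moved the median log2 fold change by -0.492, so every change given here is relative to the bulk of the genes.

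**Figure D1:**
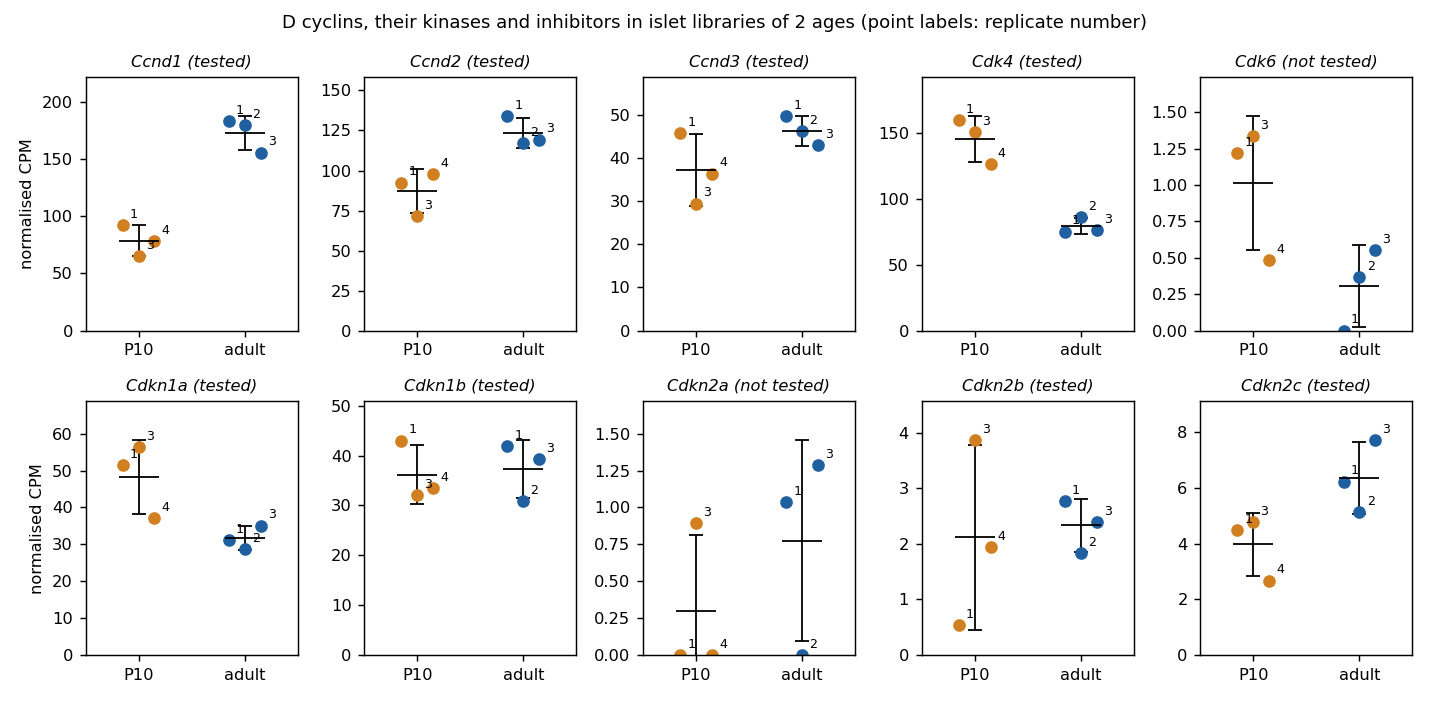
Normalised CPM (vertical axes, each from 0) of the 10 genes in P10 libraries (orange) and adult libraries (blue); numbers beside the points are replicate numbers, and bars are the mean and SD of 3 libraries. Ccnd1 and Ccnd2 lie higher in all adult libraries, Cdk4 and Cdkn1a lower, and Cdk6 and Cdkn2a lie at or below 1.34 CPM in every library.

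Ccnd1 encodes cyclin D1, the D cyclin most closely tied to growth factor signals in many tissues. Its level was 92.5, 65.1 and 78.2 CPM in P10 replicates 1, 3 and 4, and 184, 180 and 156 CPM in adult replicates 1, 2 and 3. Every adult library lay above every P10 library, and the lowest adult value exceeded the highest P10 value by more than the whole spread of either group. The group means were 78.6 ± 13.7 and 173 ± 14.99 CPM (SD, n = 3). The fitted log2 fold change was 1.14 ± 0.151 (SE), with a 95% interval from 0.815 to 1.46 and an edgeR FDR of 5.00e-05. Over all tested genes this change stood at the percentile 95.3, counted from the most negative change. The call held under each of the 13 alternative fits, where the log2 fold change lay between 0.647 (library totals) and 1.29 (without P10 replicate 1). In the same adult libraries the marker sums of fibroblasts and ducts were lower and that of beta cells was higher. The part of these cells in the change of Ccnd1 was not tested.

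Ccnd2 encodes cyclin D2, known as the main D cyclin of rodent beta cells after birth. It measured 92.5, 71.6 and 97.6 CPM in P10 replicates 1, 3 and 4 and 134, 117 and 119 CPM in adult replicates 1, 2 and 3. The groups did not overlap, but the gap between them was narrower than for Ccnd1. The fitted rise was 1.42-fold, a log2 fold change of 0.503 ± 0.149 (SE) with an edgeR FDR of 0.0204. The call was lost without P10 replicate 3 (0.387, edgeR FDR = 0.103) and without adult replicate 1 (0.444, edgeR FDR = 0.0929). With library totals the log2 fold change was 0.0176 (edgeR FDR = 0.941).

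Ccnd3, cyclin D3, the third member of the family, measured 45.8, 29.4 and 36.4 CPM at P10 and 49.8, 46.2 and 43.0 CPM in adults. P10 replicate 1 lay within the adult range, so the groups overlapped. The log2 fold change of 0.310 had a 95% interval from -0.110 to 0.730 and was not called (edgeR FDR = 0.275), and it was -0.174 with library totals. In the RefSeq annotation of the GRCr8 assembly the gene overlaps 2 other genes, LOC134480552 and LOC134480554. Since the libraries keep no strand, reads of overlapping genes cannot be told apart.

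The scaling between libraries does not enter a share taken inside each library, so the D cyclins were also compared as shares of their summed counts, which were between 874 and 1733 a library. Ccnd1 took 40.1%, 39.2% and 36.8% of the D cyclin counts in P10 replicates 1, 3 and 4. In adult replicates 1, 2 and 3 it took 49.95%, 52.4% and 49.0%. The mean was 38.7% ± 1.67 at P10 and 50.5% ± 1.76 in adults (SD, n = 3), without overlap. The shares of the other D cyclins were lower in adults without overlap. Ccnd2 went from 43.1% ± 2.96 to 36.0% ± 1.74, and Ccnd3 from 18.2% ± 1.43 to 13.5% ± 0.0357 (SD, n = 3). The 3 shares of a library add up to the whole, so these falls together mirror the rise of the Ccnd1 share. In CPM Ccnd2 was called higher in adults and Ccnd3 was not called. Each of the 3 share comparisons, which are not independent, had an exact two-sided permutation p of 0.1, the smallest that 3 against 3 libraries allow. It was 0.117 after adjustment over 7 such within-library measures. A longer transcript gives more reads, so these shares compare ages, not the amounts of the 3 cyclins.

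**Figure D2:**
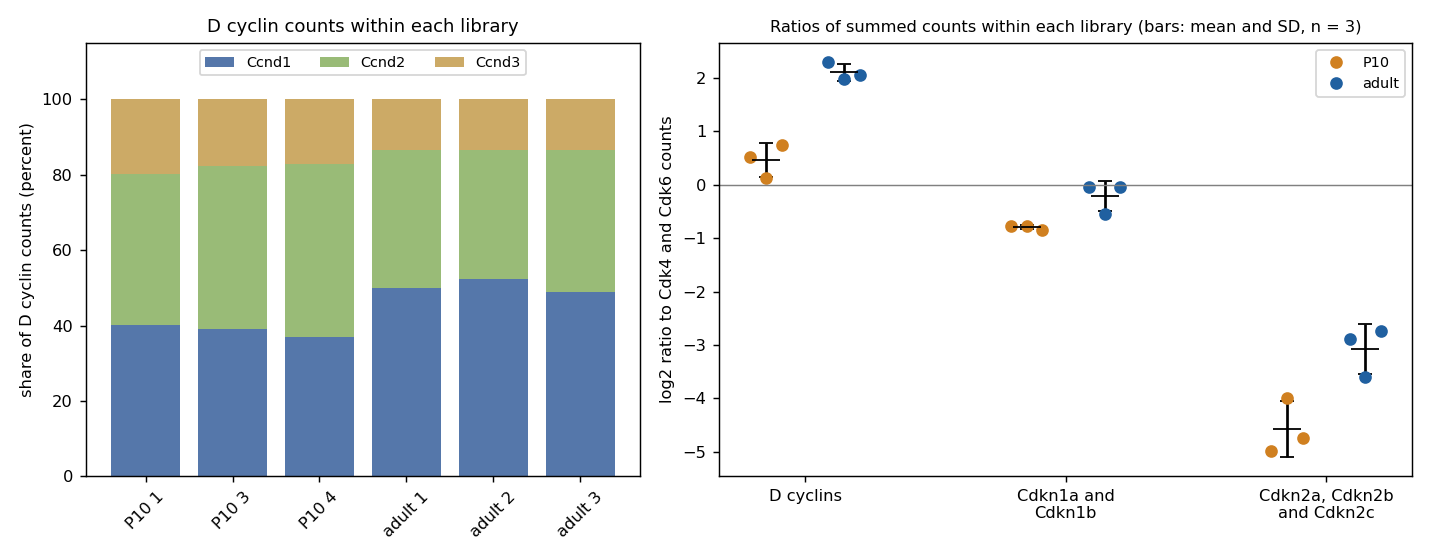
Left: share of Ccnd1, Ccnd2 and Ccnd3 in the summed D cyclin counts of each library, in percent. Right: log2 ratio of the summed counts of the D cyclins and of each inhibitor family to the summed Cdk4 and Cdk6 counts, P10 in orange and adult in blue, with mean and SD of 3 libraries. Ccnd1 takes 36.8% to 40.1% at P10 and 49.0% to 52.4% in adults, and all 3 ratios lie higher in adults without overlap.

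Cdk4, the kinase partner of the D cyclins, moved against Ccnd1 and Ccnd2. It measured 160, 151 and 126 CPM in P10 replicates 1, 3 and 4 and 75.0, 86.1 and 76.2 CPM in adult replicates 1, 2 and 3. The highest adult library lay well below the lowest P10 library. The mean fell from 145 ± 17.4 to 79.1 ± 6.10 CPM (SD, n = 3), and the fitted log2 fold change was -0.882 ± 0.142 (SE; 95% interval from -1.18 to -0.580, edgeR FDR = 0.000281). The call held under each of the 13 alternative fits, with log2 fold changes between -1.38 (library totals) and -0.800 (without P10 replicate 1). In the GRCr8 annotation Cdk4 overlaps its neighbour Tspan31, a tetraspanin gene, which measured 54.7 ± 8.01 CPM at P10 and 59.8 ± 11.3 CPM in adults (SD, n = 3; edgeR FDR = 0.644). Fibroblast and duct marker sums were lower and the beta-cell sum higher in the same adult libraries, and their part in the change of Cdk4 was not tested.

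The promoter window of Cdk4 is shown because Myc, a known activator of Cdk4 that binds E-boxes, is among the upstream genes measured. It spans 250 bases before and 50 after the start of the gene, at chr7:64771203-64771502 on the plus strand of GRCr8 (RefSeq). Capitals mark the palindromic E-box CACGTG, which is the same on both strands.

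Cdk4: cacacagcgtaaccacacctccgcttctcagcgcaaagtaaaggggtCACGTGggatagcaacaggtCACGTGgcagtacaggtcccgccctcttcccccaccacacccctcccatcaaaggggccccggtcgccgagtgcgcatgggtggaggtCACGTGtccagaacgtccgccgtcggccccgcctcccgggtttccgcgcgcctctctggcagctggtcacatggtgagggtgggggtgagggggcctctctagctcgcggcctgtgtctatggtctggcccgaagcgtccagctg

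The window holds this E-box 3 times, beginning at bases 48, 68 and 156 counted from the first base shown. Of 33469 RefSeq promoter windows of the same length 6.42% hold it at least once and 0.0568% hold it 3 times or more. Of the 10 genes, 7 had a window in the table, and Cdk4 was the only one of those 7 with this E-box. Ccnd1, Ccnd2 and Cdk6 had no window, so whether they hold it was not examined. Among other motifs searched on both strands, the E2F site GCGGGAA occurred once, in Cdkn2c, and in 4.21% of all windows. The cAMP response element TGACGTCA occurred once, in Cdkn2b, and in 1.83% of all windows. The GC box GGGCGG was found in 6 of the 7 members, all but Cdkn1a, and in 33.1% of all windows, and the CCAAT box CCAAT in Ccnd3 and Cdkn1b and in 37.5%. Binding was not measured here, and the part of Myc in the change of Cdk4 was not tested. Myc itself measured 36.1, 29.9 and 24.8 CPM in P10 replicates 1, 3 and 4 and 15.9, 5.50 and 11.6 CPM in adult replicates 1, 2 and 3, without overlap (log2 fold change -1.45 ± 0.316 SE, edgeR FDR = 0.00303).

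Cdk6, the other kinase, was close to the limit of detection. It had 9, 9 and 2 counts in P10 replicates 1, 3 and 4 and 0, 1 and 3 counts in adult replicates 1, 2 and 3, too few for the test. The 4 adult counts against 20 gave a ratio of normalised counts, P10 over adult, of 3.04 with a 95% counting interval from 1.02 to 12.2, which covers counting error only. In the edgeR fit without a filter the log2 fold change, adult over P10, was -1.57 ± 1.78 (SE) and was not called (edgeR FDR = 0.592). In the GRCr8 annotation Cdk6 overlaps 1 other gene, LOC134486561. Adult replicate 3 held 3 of the 4 adult counts, and without it the ratio was 6.17 (0.987 to 255.7). The interval also passed 1 without P10 replicate 1 (0.831 to 12.1), P10 replicate 3 (0.785 to 11.4), adult replicate 1 (0.751 to 9.03) or adult replicate 2 (0.905 to 16.03). Cdk6 made up 0.759%, 0.880% and 0.384% of the Cdk4 and Cdk6 counts in the P10 libraries and 0%, 0.424% and 0.718% in the adult libraries. The 0 among 217 counts in adult replicate 1 allows a share of up to 1.38%. The shares overlapped between the ages (exact two-sided permutation p = 0.3), so no difference in the balance of the 2 kinases was detectable at this depth.

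The D cyclins were also set against their kinases inside each library, a ratio that needs no scaling. The summed D cyclin counts divided by the summed Cdk4 and Cdk6 counts gave log2 ratios of 0.521, 0.128 and 0.746 for P10 replicates 1, 3 and 4. For adult replicates 1, 2 and 3 they were 2.29, 1.98 and 2.05. The mean log2 ratio was 0.465 ± 0.313 and 2.11 ± 0.161 (SD, n = 3), so the ratio was 3.12-fold higher in adults. The groups did not overlap (exact two-sided permutation p = 0.1, the smallest possible).

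Cdkn1a encodes p21, a CIP/KIP inhibitor known to arrest cells in G1. It measured 51.4, 56.3 and 37.1 CPM in P10 replicates 1, 3 and 4 and 31.1, 28.6 and 35.1 CPM in adult replicates 1, 2 and 3. All adult libraries were lower, though adult replicate 3 came within a few CPM of P10 replicate 4. The fitted log2 fold change was -0.610 ± 0.201 (SE; 95% interval from -1.04 to -0.182, edgeR FDR = 0.0349). The call was lost without P10 replicate 1 (-0.555, edgeR FDR = 0.0720), P10 replicate 3 (-0.479, edgeR FDR = 0.165), adult replicate 1 (-0.593, edgeR FDR = 0.102) or adult replicate 2 (-0.540, edgeR FDR = 0.122).

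Cdkn1b encodes p27, the CIP/KIP inhibitor of resting cells. Its level was 43.0, 32.1 and 33.5 CPM in P10 replicates 1, 3 and 4 and 41.8, 30.8 and 39.3 CPM in adult replicates 1, 2 and 3, so the groups covered nearly the same range. The log2 fold change of 0.0442 had a 95% interval from -0.384 to 0.473 and was not called (edgeR FDR = 0.899). Cdkn1c, the imprinted CIP/KIP inhibitor p57, was the other measured gene of this family. It had 56, 30 and 16 counts in P10 replicates 1, 3 and 4, and adult replicates 1, 2 and 3 had 0, 1 and 9. The sums of 102 and 10 counts gave a ratio of normalised counts, P10 over adult, of 6.19 (95% counting interval 3.23 to 13.3; edgeR FDR = 0.0244). Nearly all adult counts lay in adult replicate 3, without which the ratio was 31.5 (5.52 to 1255). The edgeR FDR was 0.0646 without P10 replicate 1, 0.0552 without P10 replicate 4, 0.0939 without adult replicate 1 and 0.104 without adult replicate 2, so each of these ended the call.

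Relative to the kinases, the summed CIP/KIP inhibitors of the set were higher in adults, although Cdkn1a itself was lower and Cdkn1b was not called. Cdk4, which was lower in adults, makes up nearly all of the divisor. The D cyclin and INK4 ratios have the same divisor, so these ratios are not independent of each other or of the fall of Cdk4. The log2 ratio of the Cdkn1a and Cdkn1b counts to the Cdk4 and Cdk6 counts was -0.769, -0.781 and -0.839 for P10 replicates 1, 3 and 4. It was -0.0404, -0.541 and -0.0455 for adult replicates 1, 2 and 3. The groups did not overlap, and the ratio was 1.50-fold higher in adults (exact two-sided permutation p = 0.1, the smallest possible).

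The INK4 genes had few counts, with sums of between 19 and 64 counts a library. Cdkn2c, which encodes p18, was detected in every library, at 4.48, 4.75 and 2.67 CPM in P10 replicates 1, 3 and 4 and 6.22, 5.13 and 7.71 CPM in adult replicates 1, 2 and 3. The groups did not overlap, but the log2 fold change of 0.673 ± 0.515 (SE) had a 95% interval from -0.420 to 1.77 and was not called (edgeR FDR = 0.368). Cdkn2b, which encodes p15, had 4, 26 and 8 counts at P10 and 8, 5 and 13 in adults. P10 replicates 1 and 3 held the lowest and the highest CPM of all 6 libraries, and the log2 fold change of 0.143 had a 95% interval from -1.53 to 1.82 (edgeR FDR = 0.916).

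Cdkn2a, the gene of p16 and, from another reading frame, of ARF, had too few counts to be tested. All 6 of its P10 counts lay in P10 replicate 3, and its 10 adult counts were 3 in adult replicate 1, 0 in adult replicate 2 and 7 in adult replicate 3. At least 1 library of each age had none, where a count of 0 allows up to 0.407 CPM in P10 replicate 1, 0.728 CPM in P10 replicate 4 and 1.10 CPM in adult replicate 2. The ratio of normalised counts, adult over P10, was 2.74 with a 95% counting interval from 0.904 to 9.19. The ratio hung on single libraries: it was 1.63 (0.538 to 5.47) without P10 replicate 1, 1.62 (0.262 to 7.59) without adult replicate 3 and 3.64 (1.20 to 12.2) without adult replicate 2. Without P10 replicate 3 no P10 count was left, and the lower bound was 2.33. The counts are too few to say whether the ages differ. The counts are per gene symbol and do not separate the p16 and ARF transcripts. Set against the kinases, the summed INK4 counts were higher in adults, with the lower Cdk4 again in the divisor. Neither tested INK4 gene was called by itself. The log2 ratio was -4.98, -3.99 and -4.74 for P10 replicates 1, 3 and 4, and for adult replicates 1, 2 and 3 it was -2.88, -3.60 and -2.74. The groups did not overlap (exact two-sided permutation p = 0.1), and the ratio was 2.82-fold higher in adults.

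**Figure D3:**
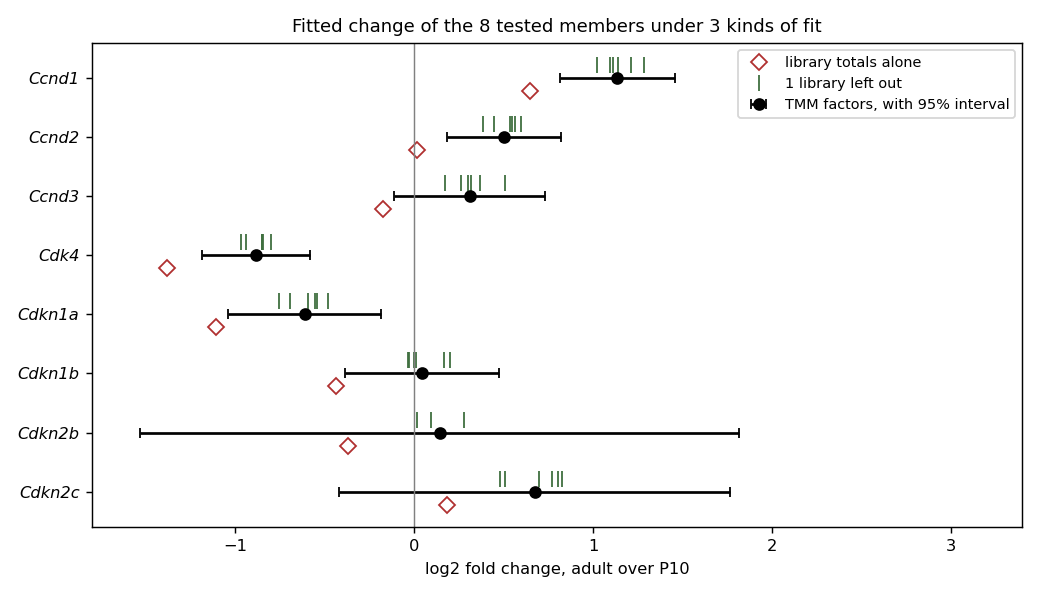
Log2 fold change, adult over P10 (horizontal axis), of the 8 tested members: black points are the fit with TMM factors with its 95% interval, green ticks the fits with 1 library left out, red diamonds the fit on library totals. Ccnd1 stays right of 0 and Cdk4 and Cdkn1a left of 0 in all fits shown, whereas Ccnd3, Cdkn1b and Cdkn2b change side with library totals, and Cdkn1b also without P10 replicate 3 or adult replicate 1.

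Of the genes that act on the D cyclins from above, 4 of 24 tested rose and 3 fell, with a median log2 fold change of 0.029. The 29.2% called lie near the 26.3% of all tested genes. Irs2, an adaptor of the insulin and IGF1 receptors, rose 2.87-fold, from 54.4, 56.3 and 53.4 CPM in P10 replicates 1, 3 and 4 to 153, 179 and 141 CPM in adult replicates 1, 2 and 3. Prlr, the prolactin receptor, which signals to Ccnd2 in the pregnant islet, rose 2.89-fold, and Foxo1, a transcription factor restrained by insulin signalling, rose 2.64-fold. Among the 3 that fell was Myc, given above. Without adult replicate 3, 5 of the list fell, and with library totals 3 rose and 10 fell.

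Downstream of the kinases, none of the 7 tested genes of the Rb family, E2F and DP factors was called in edgeR's or DESeq2's test, and 2 had an unadjusted edgeR p under 0.05. The edgeR FDR of E2f1, the smallest in the list and named outside the rule, was 0.0846. The genes that E2F switches on for S phase were lower: 13 of 17 tested fell and none rose, with a median log2 fold change of -1.29. These falls were 76.5% of those tested in the list, against 13.8% of all tested genes. Mcm2, a subunit of the replicative helicase, fell from 58.6, 48.4 and 48.6 CPM in P10 replicates 1, 3 and 4 to 20.4, 19.1 and 16.2 CPM in adult replicates 1, 2 and 3. Mcm3, of the same helicase, fell 4.28-fold and Pcna, the sliding clamp of DNA polymerases, 2.24-fold. Leaving out single libraries gave 12 or 13 falls. That DNA replication genes are lower in these libraries was known when the list was drawn up, so its count is no independent evidence. Fibroblast and duct marker sums were lower and the beta-cell sum higher in the same adult libraries, and their part in these falls was not tested.

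Of the E, A and B cyclins and their kinases, which follow the D cyclins in the cycle, 4 of 7 tested fell and none rose. The share that fell was 57.1%, against 13.8% of all tested genes, and the median log2 fold change was -1.83. Cdk1, the mitotic kinase, fell 3.56-fold from 23.1 ± 1.65 to 6.25 ± 2.29 CPM (SD, n = 3), and Ccnb1, cyclin B1, 5.98-fold (log2 fold change -2.58, and -3.21 without adult replicate 2). Ccna2, cyclin A2, had 47 counts at P10 and 1 in adults, which is a P10 over adult ratio of 28.5 (95% counting interval 4.88 to 1151; edgeR FDR = 0.0120). Leaving out P10 replicate 4 (FDR = 0.0565), adult replicate 1 (0.0915) or adult replicate 3 (0.0687) ended the call, and without P10 replicate 1 the gene had too few counts to be tested. The ratio was 14.5 (2.48 to 584.6) without adult replicate 3. Leaving out adult replicate 2 removed the only adult count and gave a lower bound of 5.60. The list had 2 falls when P10 replicate 1, adult replicate 1 or adult replicate 3 was left out. With library totals 7 of them fell.

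Among the genes that fold, activate or degrade cyclin-kinase complexes, 5 of 13 tested fell and none rose, with a median log2 fold change of -0.34. The falls made up 38.5% of those tested, where 13.8% of all tested genes fell. Cks2, a small docking subunit of cyclin-dependent kinases, fell 2.79-fold and Cks1b, its relative that helps to mark p27 for degradation, 1.72-fold (not called without adult replicate 1 or 2, edgeR FDR = 0.0572 and 0.0525). Hsp90aa1, an inducible HSP90 chaperone, fell 1.50-fold. Cdc37, the co-chaperone that loads CDK4 onto HSP90, named outside the rule, fell (edgeR FDR = 0.0184) from 165 ± 5.78 to 122 ± 11.3 CPM (SD, n = 3). Hsp90ab1, another HSP90 gene of the list and also named outside the rule, was not called (edgeR FDR = 0.737). It measured 1126 ± 252 CPM at P10 and 1067 ± 98.2 CPM in adults (SD, n = 3). Without P10 replicate 3 or adult replicate 1, 3 of the list fell, without adult replicate 2, 2 fell, and without P10 replicate 1, 1 rose. With library totals 10 fell.

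Of 11 tested chromatin regulators of the inhibitor genes, 3 rose and 2 fell, with a median log2 fold change of 0.33. Together 45.5% of them were called, against 26.3% of all tested genes. Ezh2, the Polycomb methyltransferase known to silence Cdkn2a in young beta cells, had 137 counts at P10 and 18 in adults, and its fitted fall was 4.59-fold (edgeR FDR = 0.0275). With P10 replicate 3, P10 replicate 4, adult replicate 2 or adult replicate 3 left out, the FDR was 0.122, 0.0975, 0.0973 and 0.0844, so Ezh2 was no longer called. Its log2 fold change was -2.20, and -3.05 without adult replicate 1. Men1, which encodes menin, known to maintain Cdkn1b and Cdkn2c expression in islets, rose 1.72-fold from 26.0 ± 4.46 to 44.3 ± 9.26 CPM (SD, n = 3). Men1 was not called when P10 replicate 3 (edgeR FDR = 0.0632), adult replicate 1 (0.0532) or adult replicate 3 (0.0691) was left out. Ezh1, the relative of Ezh2, measured 48.8, 49.5 and 99.9 CPM in adult replicates 1, 2 and 3, and its 1.93-fold rise was not called without adult replicate 3 (edgeR FDR = 0.120). Cbx7, a Polycomb subunit, rose 1.84-fold. With library totals none of the list rose and 5 fell. Without adult replicate 3, 1 rose and none fell, and without P10 replicate 3 or adult replicate 1, 2 rose. No gene of the list fell without P10 replicate 3, and 1 fell when P10 replicate 4, adult replicate 1 or adult replicate 2 was left out.

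The other cyclins and cyclin-dependent kinases, many with roles outside the cycle, gave 3 rises and no fall among 24 tested, with a median log2 fold change of 0.194. The 12.5% that rose equal the share of all tested genes that rose. Cdk18, a kinase of the PCTAIRE family, rose 2.98-fold from 8.99 ± 0.228 to 26.8 ± 2.29 CPM (SD, n = 3). Cdk16, of the same family, rose 1.40-fold, with a log2 fold change of -0.00458 under library totals and no call without P10 replicate 3 (edgeR FDR = 0.0604). Ccnk, cyclin K, a partner of transcriptional kinases, rose 2.06-fold, and leaving out adult replicate 1, 2 or 3 ended its call (edgeR FDR = 0.0618, 0.0524 and 0.149). Without P10 replicate 3 or any 1 adult library 2 of this list rose, and without adult replicate 2 or 3, 1 fell. With library totals 1 rose and 6 fell.

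**Figure D4:**
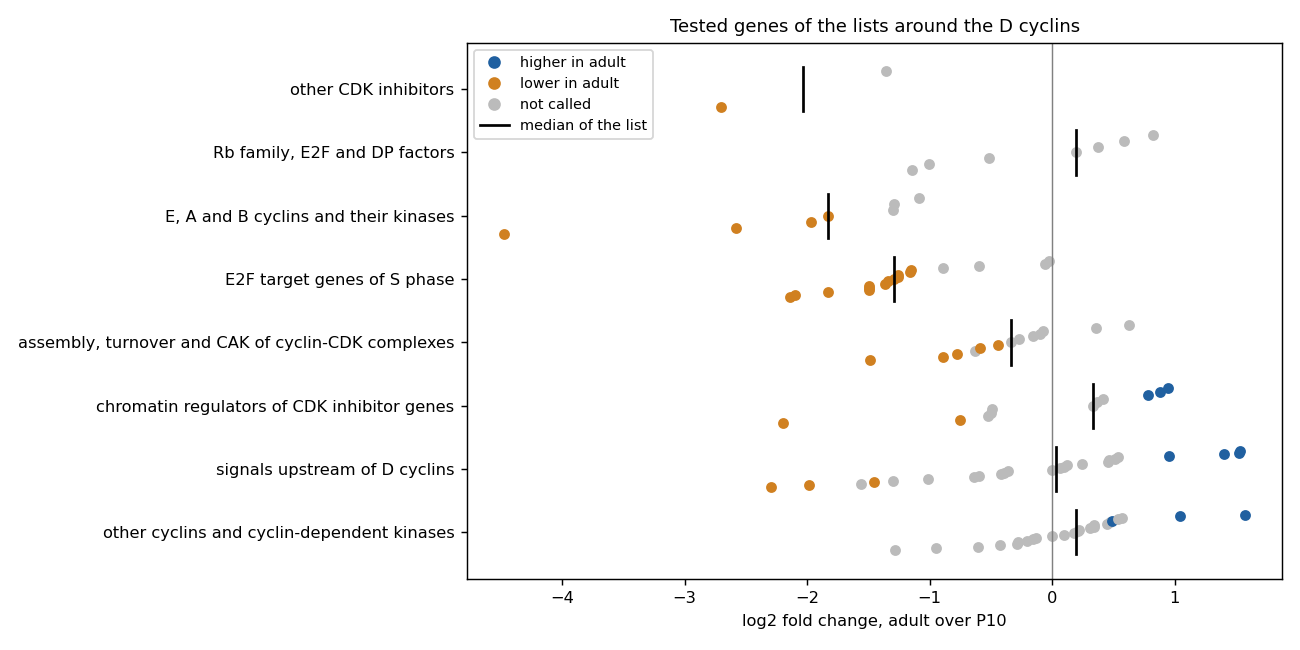
Log2 fold change, adult over P10 (horizontal axis), of each tested gene of 8 lists around the D cyclins (vertical axis): blue higher in adult, orange lower in adult, grey not called, with the median of each list as a black line. The S-phase targets of E2F and the E, A and B cyclins with their kinases lie left of 0, with medians of -1.29 and -1.83.

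Over the 6 libraries, the genes most like Ccnd1, the called member with the smallest p, were Cltb, Lrrc41 and Rab4a, with Pearson r of log2(CPM + 1) of 0.997, 0.997 and 0.996 among 8773 candidate genes of at least 5 CPM. These values describe a pattern that a difference between the 2 ages sets for many genes.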

How the data were processed

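Each of the 6 libraries has a deposited file of unnormalised read counts by gene symbol. Bowtie2, TopHat2 2.0.10, HTSeq, DESeq, edgeR and the rn5 build are named, without roles, in the submitters' processing notes. Per the labels' protocols the libraries were single-end and not strand-specific. Rows that name no gene were left out throughout. They held between 0.319% and 0.474% ambiguous reads. Alignments that were not unique made up between 23.4% and 27.7% at P10 and between 15.1% and 17.8% in adults, without overlap. The part of this difference in the results was not tested.

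Counts were tested with edgeR 4.0.16 in R 4.3.3 (filterByExpr with a minimum count of 10, TMM factors, quasi-likelihood fit with age group as the only term, all 6 libraries). P-values were adjusted by Benjamini-Hochberg over 10124 genes, with a threshold of 0.05, and they measure the spread between these replicates. SE was derived from the log2 fold change and the F statistic (its size over the root of F). Within-library ratios used a pseudocount of 0.5 and exact permutation over libraries. Alternatives changed the scaling (library totals, relative log expression, or TMM without acinar and hormone genes), the tool (DESeq2 1.42.0), the filter (none, or 5 CPM in 3 libraries) or the design (a replicate block, or each library left out). The fit was also run on simulated counts with the same composition at both ages apart from a set of changed genes. That run does not test the scaling between real libraries, whose composition differs.

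The members and the 9 lists (137 entries, 125 with a row) were chosen with earlier results of these data known, so they are no independent evidence. The result of 1 of the lists is not reported here. Named were all members, Cdkn1c, and of each list the 3 called genes with the smallest p in the main direction and the 1 in the other, and the 3 genes most correlated with the called member of smallest p. Genes named outside this rule were chosen after their values were seen. Sequences are RefSeq windows of GRCr8, used for no coordinate of the counts.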

Additional observations from a re-analysis of the deposited data

How the results depend on the processing

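Of 13 alternative fits, relative log expression factors, TMM without hormone and acinar genes, DESeq2, no filter and 5 CPM in 3 libraries left the counts of members called at 2 higher and 2 lower. With library totals 343 genes were higher and 3612 lower, against 1265 and 1394, and rises made up 8.67% of the calls in place of 47.6%. The log2 fold changes of Ccnd3, Cdkn1b, Cdkn2b and Cdk16 then became -0.174, -0.437, -0.370 and -0.00458, and 1 member was called higher. The sign of Cdkn1b also turned without P10 replicate 3 (-0.0306) and without adult replicate 1 (-0.0354), and over all left-out libraries it ran from -0.0354 to 0.203. With single libraries left out, between 923 and 1262 genes were higher, between 1040 and 1266 lower, and between 1 and 2 members were called in each direction. Cdkn2b had too few counts to be tested without P10 replicate 1, P10 replicate 3 or adult replicate 3, and at 5 CPM in 3 libraries.

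The numbers 1 and 3 occur in both groups. Libraries that share them did not deviate together (correlations of -0.0364 and -0.00347), and nothing in the labels ties them to 1 litter or day. With the replicate number as a block 679 genes were higher and 729 lower, and 1 member was called in each direction, Ccnd1 and Cdk4. Of the E, A and B cyclins and their kinases 2 then fell, of the assembly genes 2, of the upstream signals 1 and of the chromatin regulators none. The block leaves 1 residual degree of freedom.

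The 7 within-library measures kept their direction without any 1 library and, for the 3 log2 ratios, with a pseudocount of 5. Shares per coding length were not run, since no lengths of transcripts were used here. Depth limits Cdk6 and Cdkn2a, which had at most 9 counts in any library, and leaves Cdkn2b and Cdkn2c with intervals wider than a 2-fold change.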
